A study of Mus musculus with 29 samples.

Results

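The hepatocyte miRNA mmu-miR-122-5p (miR-122-5p) was followed through small RNA sequencing of serum and of tibialis anterior, a leg muscle, in C57BL/6 mice. It is a single entry, chosen by name, of 1183 mature miRNAs in the deposited count table. It is among the 695 that have a value for all 29 libraries, so it could be read in every library. The 6 groups were old serum (24 months, 4 libraries), disuse serum (6 months, labelled as a disuse-induced atrophy model, 5 libraries), young serum (6 months, 5 libraries), and old, disuse and young muscle of the same ages and states with 5 libraries each. Old and young mice are both labelled as controls, and no label gives a genotype, transgene or agent. No source used here says how disuse was imposed or for how long. The labels do not say that numbered samples are separate animals, nor that serum and muscle came from the same mice. A p-value therefore measures only the spread between these samples, and that spread may be technical.

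MicroRNAs are short RNAs that lower the translation and stability of target messenger RNAs. miR-122-5p is made almost only in hepatocytes, where it is the most abundant miRNA and shapes cholesterol and fatty acid metabolism, and its passenger strand is miR-122-3p. Hepatocytes release it into the blood when they are injured, which made it a circulating marker of liver damage in rodents and humans. Skeletal muscle is not known as a source of it.

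Other liver miRNAs give the setting for it. miR-192-5p and miR-215-5p are made in liver, intestine and kidney epithelium, miR-194-5p is encoded beside each of them, and miR-148a-3p is abundant in liver but also made in other tissues. The miR-192-5p and miR-215-5p sequences are shown because these miRNAs moved with age in serum where miR-122-5p did not pass the test. Both have the same seed, 18 of 21 positions are equal, and how the authors counted ambiguous reads is not given in the sources used. Sequences are from RefSeq (GRCm38.p6), 5′ to 3′, with the seed, bases 2 to 8, in capitals, and all 5 names looked up were found.
miR-192-5p (Mir192, chr19:6264857-6264877, plus strand): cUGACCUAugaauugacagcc
miR-215-5p (Mir215, chr1:185313610-185313630, plus strand): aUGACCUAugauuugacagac
miR-194-5p (Mir194-1 at chr1:185313325-185313346 and Mir194-2 at chr19:6264658-6264679, plus strand): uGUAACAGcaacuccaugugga
miR-148a-3p (Mir148a, chr6:51269829-51269850, minus strand): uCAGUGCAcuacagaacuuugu
miR-139-5p (Mir139, chr7:101475382-101475403, plus strand), the miRNA outside the liver list that followed miR-122-5p most closely in serum: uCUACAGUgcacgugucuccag

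The libraries held 45176 to 309133 counts in serum and 254624 to 5943445 in muscle. A library with no count of a miRNA allows a level of up to 3 counts of its total, which is 9.70 to 66.4 CPM (counts per 1000000 counts of the library) in serum and 0.505 to 11.8 CPM in muscle. These limits, and the 95% Poisson intervals given with levels, cover counting error only, because PCR copies were not told from separate molecules. The defining miRNAs of striated muscle summed to 636 to 4654 CPM in serum, where miR-499-5p was at 0 in old and disuse serum and miR-208b-3p at 0 in old and young serum, and to 377020 to 523946 CPM in muscle. The erythrocyte list summed to 170115 to 391657 CPM in serum and 55315 to 111634 CPM in muscle, with all 7 members counted in every group. Its most abundant member, miR-486-5p, which muscle makes too, averaged 200798 CPM in old, 239506 CPM in disuse and 243274 CPM in young serum, and 49269 CPM in old, 58842 CPM in disuse and 69760 CPM in young muscle. miR-133a-3p, the most abundant member of the striated muscle list in muscle here, averaged 2227 CPM in old, 2469 CPM in disuse and 2540 CPM in young serum, and 462561 CPM in old, 477664 CPM in disuse and 432239 CPM in young muscle. It made up almost all of the muscle sums: young muscle 3 had the lowest sum, 377020 CPM, of which miR-133a-3p was 375519 CPM. miR-1a-3p and the other members were thus a small part of these sums, and why was not tested. Serum RNA was purified with a serum and plasma kit and 10 ng entered each library, whereas muscle RNA was extracted with Trizol and 2 µg entered, so source cannot be told apart from extraction and input.

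miR-122-5p was a common miRNA of serum and a trace in muscle. In serum it had 3068 counts over 14 libraries, at least 27 in each, and ranked between 35 and 121 of the miRNAs of a library. In muscle it had 86 counts over 15 libraries, 14 at most, and 3 libraries had none. The lowest serum library was 33.8 times the highest muscle library, so the ranges of the sources did not overlap in any pairing of groups.

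Old serum libraries 1 to 4 had 1469, 1772, 1780 and 841 CPM of miR-122-5p, from 117, 462, 315 and 38 counts. Disuse serum libraries 1 to 5 had 1244, 1139, 1363, 1579 and 711 CPM, from 217, 146, 228, 488 and 126 counts. Young serum libraries 1 to 5 had 202, 1465, 2838, 825 and 1860 CPM, from 27, 257, 279, 240 and 128 counts. The young libraries held both the lowest and the highest serum level, and the old and disuse libraries all lay between them, so the 3 groups overlapped.

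Old muscle libraries 1 to 5 had 1.51, 5.98, 4.96, 4.45 and 2.70 CPM of miR-122-5p, from 9, 12, 14, 6 and 9 counts. Disuse muscle libraries 1 to 5 had 1.39, 2.07, 0, 3.48 and 2.66 CPM, from 3, 10, 0, 8 and 7 counts. Young muscle libraries 1 to 5 had 0, 0, 2.05, 1.87 and 2.32 CPM, from 0, 0, 1, 1 and 6 counts. Every old muscle library had counts, and 4 of 5 lay above the highest young muscle library, but old muscle 1 fell inside the young range.

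**Figure D1:**
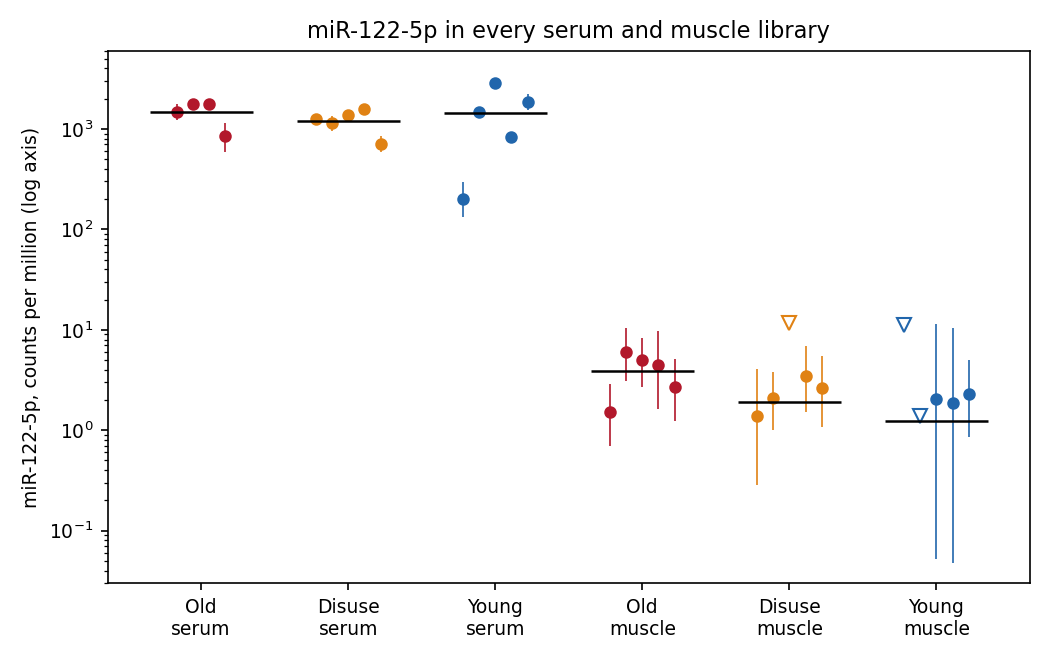
Level of miR-122-5p in each library, in CPM on a log axis, with 95% Poisson intervals as vertical lines, group means as horizontal bars and open triangles at the limit of 3 counts for libraries with 0 counts. All 14 serum libraries lie at or above 202 CPM and all 15 muscle libraries at or under 5.98 CPM, and young serum spreads most.

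miR-122-5p averaged 1466 ± 441 CPM in old serum (SD, n = 4), 1207 ± 322 CPM in disuse serum and 1438 ± 1005 CPM in young serum (n = 5 each), and 3.92 ± 1.79 CPM in old muscle, 1.92 ± 1.32 CPM in disuse muscle and 1.25 ± 1.15 CPM in young muscle (n = 5 each). By mean level, disuse serum was thus the lowest serum group and old muscle the highest muscle group. Neighbours in the order of means within serum differed by less than their SDs, and so did disuse and young muscle, while old muscle exceeded disuse muscle by slightly more than either SD. The gap between the lowest serum group and the highest muscle group was far beyond either spread. Within serum, the SD was 30.1% of the mean in old, 26.7% in disuse and 69.9% in young libraries, and the highest library was 2.12 times the lowest in old, 2.22 times in disuse and 14.1 times in young serum.

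Young serum 1 stood apart from the other young serum libraries. Its miR-122-5p level of 202 CPM (95% Poisson interval 133 to 294 CPM) was the lowest in serum, and the next lowest was 711 CPM in disuse serum 5. The same library had the highest level of miR-451a, the miRNA most specific to red cells, at 24510 CPM, where the other young serum libraries had 7204 to 14517 CPM. Its red cell ratio, the log2 of miR-451a over miR-23a-3p counts, was 3.57, against 0.58 to 1.37 in old serum, 1.33 to 2.38 in disuse serum and 1.54 to 2.67 in the other young serum libraries. It also had the highest miR-148a-3p in serum (21540 CPM) and the lowest miR-191-5p (39496 CPM), while its miR-192-5p of 7242 CPM lay inside the young range of 6317 to 12768 CPM. The part of red cell RNA in its miR-122-5p level was not tested, and results on young serum are given with and without this library.

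Old against young serum asks whether the level of this hepatocyte miRNA in blood differs between 24 and 6 months of age. It was not shown to: old serum was at 1.06 times the young serum level, a log2 fold change of 0.09 ± 0.49 (SE; edgeR quasi-likelihood test over the 14 serum libraries, adjusted p = 0.946). In that comparison 9.70% of 165 tested miRNAs passed at an adjusted p under 0.05, and the median over all of them was -0.09 on the log2 scale. Without young serum 1 the value for miR-122-5p was -0.09 (adjusted p = 0.924), and without old serum 2 it was -0.23, so its sign rested on single libraries.

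Among the other liver miRNAs, miR-192-5p and miR-215-5p were called higher in old than in young serum, whereas miR-148a-3p and miR-194-5p were not. Of the 9 members of the liver list 5 were tested, 2 rose, 0 fell and 3 did not pass, with a median log2 fold change of 0.09, where 2.42% of all tested miRNAs passed as higher. miR-192-5p had 23140, 19722, 21176 and 12706 CPM in old serum libraries 1 to 4, against 7242, 10947, 12768, 6317 and 8588 CPM in young serum libraries 1 to 5. It rose by 1.10 ± 0.26 on the log2 scale (edgeR, adjusted p = 0.0173), and old serum 4 overlapped the young range by a narrow margin. miR-215-5p had 10032, 6367, 8217 and 5069 CPM in old serum libraries 1 to 4, against 5170, 4305, 5372, 2624 and 2267 CPM in young serum libraries 1 to 5, and rose by 0.97 ± 0.25 (edgeR, adjusted p = 0.0187). Both also passed without young serum 1, at 1.05 and 1.07 (adjusted p = 0.0172 for both). Without old serum 2 neither call held (adjusted p = 0.0782 for each), and without old serum 1 miR-215-5p did not pass (adjusted p = 0.0658). The miR-215-5p call was also lost with library totals as the scaling (adjusted p = 0.137) and with totals without the erythrocyte list (adjusted p = 0.0984), while miR-192-5p passed with both. miR-148a-3p was at -0.80 ± 0.52 and miR-194-5p at -0.25 ± 0.32, neither past the threshold. Beside these, 2 of 7 tested members of the erythrocyte list fell in old serum and 0 rose, where 7.27% of all tested miRNAs passed as lower. The list's summed level was 170115 to 296024 CPM in old serum and 257416 to 391657 CPM in young serum, and its part in the old and young difference was not tested.

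Disuse against young serum asks the same of the induced atrophy model. miR-122-5p was at 0.822 times the young serum level, a log2 fold change of -0.28 ± 0.47 (edgeR, adjusted p = 0.932), and at -0.48 without young serum 1 (adjusted p = 0.777). In this comparison 0 of 165 tested miRNAs passed, a share of 0%, by edgeR and also 0 by DESeq2 and by limma-voom, and 20 had an unadjusted p under 0.05. Of the 5 tested liver miRNAs 0 passed, and their median was -0.28, beside -0.09 for all tested miRNAs. miR-192-5p averaged 9112 ± 2316 CPM in disuse serum and 9172 ± 2660 CPM in young serum (SD, n = 5 each), and miR-215-5p 3693 ± 1202 CPM in disuse serum and 3947 ± 1434 CPM in young serum.

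Old against disuse serum compares the natural and the induced model. miR-122-5p was at 1.29 times the disuse serum level, a log2 fold change of 0.37 ± 0.49 (edgeR, adjusted p = 0.847), where 2.42% of 165 tested miRNAs passed. Here 2 of the 5 tested liver miRNAs rose and 0 fell, with a list median of 0.37, where 1.82% of all tested miRNAs passed as higher. miR-192-5p was higher in old serum by 1.14 ± 0.26 and miR-215-5p by 1.04 ± 0.25 on the log2 scale (edgeR, adjusted p = 0.0304 for both). These calls were close to the threshold: both were lost with library totals as the scaling (adjusted p = 0.102 for miR-192-5p and 0.246 for miR-215-5p) and with the replicate number as a block (0.0617 for each). Leaving out single libraries took their adjusted p as high as 0.167. The calls were lost without young serum 3, old serum 1, 2 or 3, or disuse serum 2, 3, 4 or 5.

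miR-122-5p was also read as a ratio of counts to another miRNA of the same library, a measure that does not depend on how libraries are scaled. The capture of different miRNA sequences is unequal, so a ratio is compared between libraries and is not a ratio of molecules. As miR-192-5p was itself higher in old serum in the same libraries, a lower ratio to it there is not independent of that result. The log2 ratio of miR-122-5p to miR-192-5p averaged -3.73 ± 0.24 in old serum, -2.92 ± 0.31 in disuse serum and -3.07 ± 1.21 in young serum (SD, n = 4, 5 and 5). Old serum ran from -3.97 to -3.47 and disuse serum from -3.29 to -2.63, so these groups did not overlap. The difference of -0.81 had the smallest p that 4 against 5 libraries can give (exact two-sided permutation test, p = 0.0159), and it did not pass over the 15 ratio comparisons (adjusted p = 0.119). A single ratio at that smallest p cannot pass over 15 comparisons, so not passing does not show equal ratios. Old against young serum differed by -0.66 (exact permutation p = 0.317, adjusted p = 0.595). Young serum 1, at -5.14, lay far from the other young libraries (-2.93 to -2.17), and without it that difference was -1.18 (exact permutation p = 0.0286, adjusted p = 0.0680). Disuse against young serum differed by 0.14 with young serum 1 and by -0.37 without it.

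Ratios to miRNAs that are often used as serum references gave no difference past the threshold. The log2 ratio of miR-122-5p to miR-191-5p, a miRNA of many tissues, differed by 0.22 between old and young serum, 0.07 between disuse and young serum and 0.15 between old and disuse serum (exact permutation p = 0.778, 0.913 and 0.667). The log2 ratio to miR-16-5p, which is abundant in red cells, differed by 0.78, 0.15 and 0.63 in the same comparisons (exact permutation p = 0.508, 0.944 and 0.127). None of these passed over the 15 comparisons, and the smallest adjusted p among them was 0.317. Without young serum 1, the ratio to miR-191-5p differed by -0.18 between old and young serum and by -0.33 between disuse and young serum, and that to miR-16-5p by 0.03 and -0.60.

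**Figure D2:**
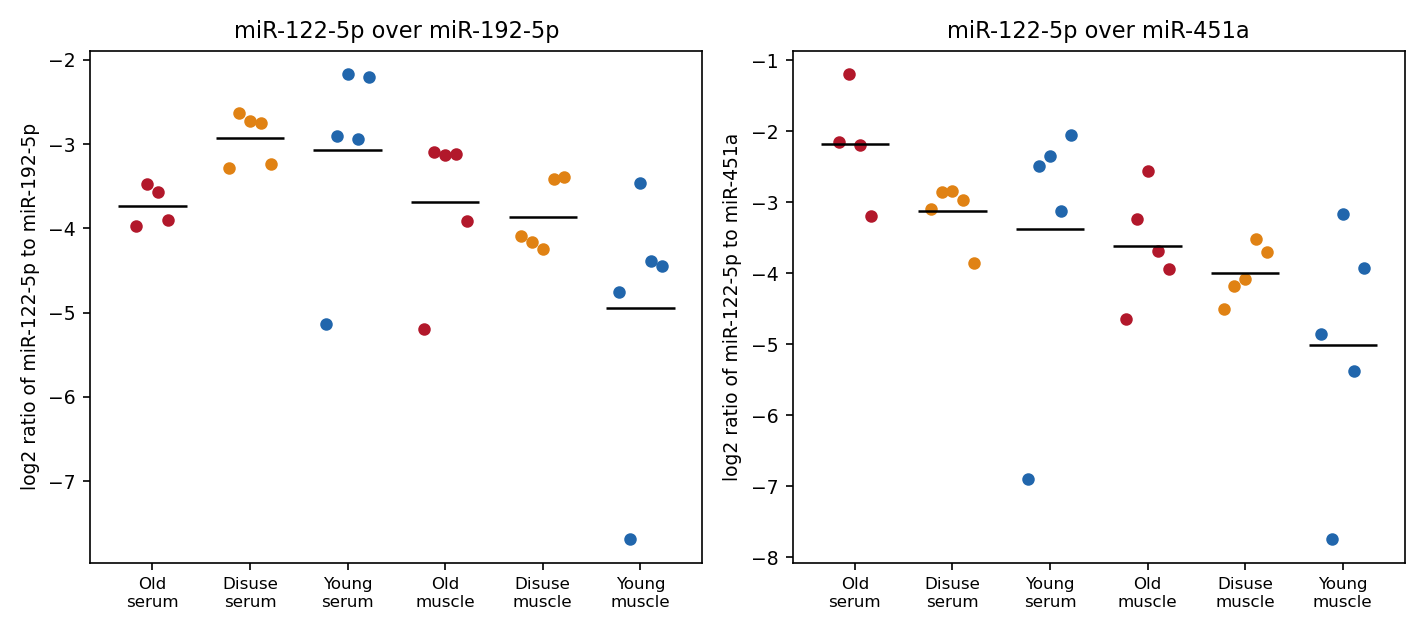
The log2 ratio of miR-122-5p counts to miR-192-5p counts (left) and to miR-451a counts (right) in each library, with 0.5 added to each count and group means as horizontal bars. Old serum lies under disuse serum on the left (means -3.73 and -2.92), and young serum 1 is the lowest serum library in both panels, at -5.14 and -6.90.

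Across the 14 serum libraries, miR-122-5p and miR-192-5p moved together within groups. Over all libraries Pearson's r of log2 (CPM + 1), here scaled by TMM factors and not by library total, was 0.61 (permutation p = 0.0209, adjusted p = 0.0689 over 6 relations) and Spearman's rho was 0.55 (permutation p = 0.0441, adjusted p = 0.264). After centring each group on its mean, r was 0.84 (permutation p = 1.30e-04, adjusted p = 7.80e-04), and it was 0.78 without young serum 1 and 0.68 without young serum 1 and old serum 4, the libraries farthest from the median of the centred miR-192-5p. That permutation shuffled the centred values over all 14 libraries and not within groups. It takes no account of the fitted group means or of the wider spread of young serum, so this p may be too small. Without centring, r was 0.24 without old serum 2 and young serum 1, the libraries farthest from the median of miR-192-5p on the TMM scale, so the relation over all libraries rested on them. Old serum 4 and disuse serum 5 were the lowest libraries of their groups for both miRNAs.

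Over all libraries, the relation with red cell RNA rested on young serum 1. Over the 14 serum libraries, r of miR-122-5p with the red cell ratio was -0.64 (permutation p = 0.0261, adjusted p = 0.0689), but rho was -0.25 (permutation p = 0.383, adjusted p = 0.767). It was -0.05 without young serum 1 and young serum 4, the libraries farthest from the median ratio. Centred on group means r was -0.73 (permutation p = 0.00447, adjusted p = 0.0134), and it was -0.45 without young serum 1 and -0.54 without young serum 1 and disuse serum 4, the libraries farthest from the median of the centred ratio. This permutation too shuffled centred values across groups, so its p may be too small. Serum miR-122-5p was not shown to follow sequencing depth: r with the log2 library total was 0.06 and rho 0.02 (permutation p = 0.829 and 0.940).

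**Figure D3:**
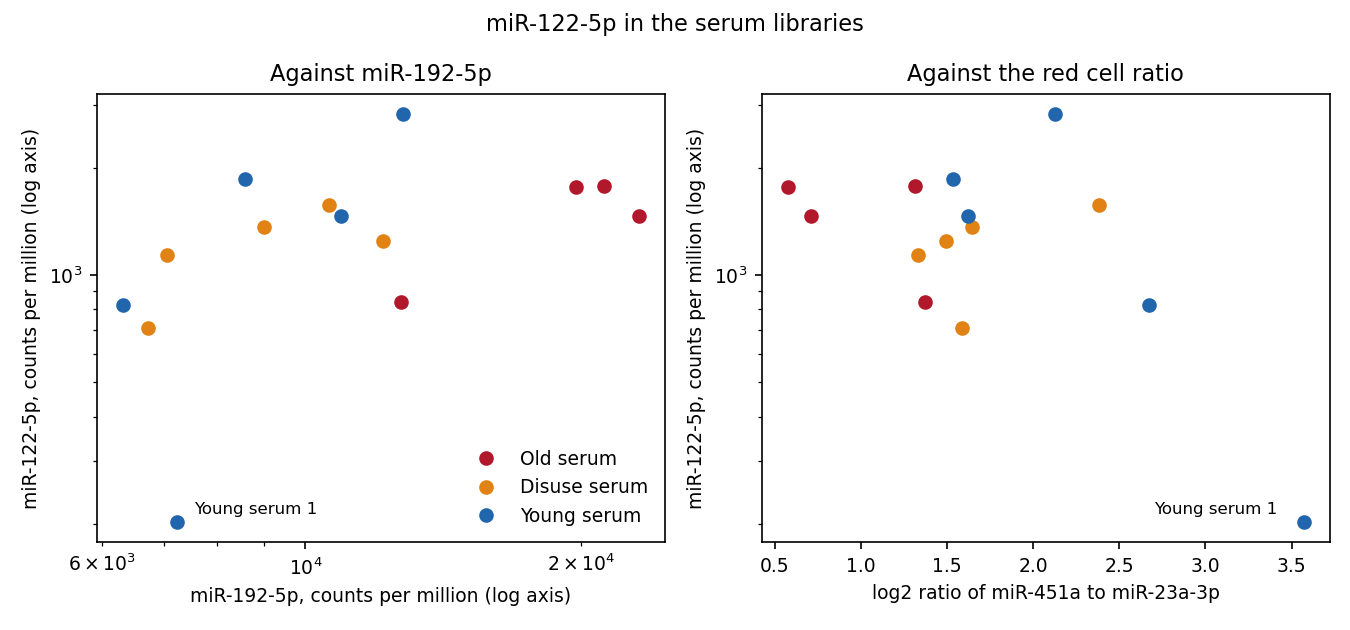
Level of miR-122-5p (CPM, log axis) in the 14 serum libraries against miR-192-5p (CPM, log axis, left) and against the red cell ratio (log2 of miR-451a over miR-23a-3p, right), coloured by group. Within groups the libraries with more miR-192-5p tend to have more miR-122-5p. Old serum 1 goes against this, with the most miR-192-5p of its group but less miR-122-5p than old serum 2 and 3. The centred r of 0.84 is of TMM-scaled values, whereas the plot shows CPM by library total. Young serum 1 is alone at the lower right of the right panel, with a ratio of 3.57.

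The miRNAs whose pattern was most like that of miR-122-5p in serum were taken by Pearson's r of TMM-scaled log2 (CPM + 1) centred on group means over the 14 libraries, among 164 tested miRNAs. They were miR-192-5p (0.84), miR-139-5p (0.81), miR-10a-5p (0.72), miR-501-3p (0.70) and miR-185-5p (0.69). Without young serum 1, miR-192-5p remained at place 1 (0.78) and miR-139-5p at place 2 (0.59). The other 3 dropped to places 10, 15 and 24, with r of 0.39, 0.37 and 0.29. These values describe libraries that share their scaling factors and are given with no test. miR-139-5p averaged 454 ± 204 CPM in old serum, 549 ± 55.8 CPM in disuse serum and 370 ± 150 CPM in young serum (SD, n = 4, 5 and 5).

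In muscle the question is whether the trace of miR-122-5p differs with age or disuse. Old muscle had the highest level, at 3.14 times the young muscle mean, and no comparison passed after adjustment. miR-122-5p did not reach the minimum count for the fit over all miRNAs in muscle, so its log2 (CPM + 1) was compared with an exact two-sided permutation test, on which fold changes of so low a level are understated. The difference was 1.22 ± 0.46 (SE) between old and young muscle (exact permutation p = 0.0317, adjusted p = 0.0952 over the 3 muscle comparisons, n = 5 each). It was 0.46 ± 0.55 between disuse and young muscle (exact p = 0.405, adjusted p = 0.405) and 0.76 ± 0.45 between old and disuse muscle (exact p = 0.111, adjusted p = 0.167). Such a test of 5 against 5 libraries has 252 arrangements and a smallest p of 0.00794. In bulk muscle, less blood or fewer cells that carry a miRNA and less of it per cell cannot be told apart.

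Depth differed with age in muscle and limits that comparison. The median library total was 2825032 in old, 2298437 in disuse and 535754 in young muscle. Young muscle 1 had 268350 counts, so its 0 counts allow up to 11.2 CPM, more than any old muscle library had. The 0 counts of young muscle 2, in 2169800 counts, allow up to 1.38 CPM. Disuse muscle 3, with 254624 counts and none of miR-122-5p, allows up to 11.8 CPM. With young muscle 1 and disuse muscle 3 left out, the old and young difference was 1.00 (exact permutation p = 0.0476, adjusted p = 0.143), and with every muscle library thinned to 254624 counts it was 0.91 (exact permutation p = 0.405). Without old muscle 1, the old library inside the young range, it was 1.42 and passed (exact permutation, adjusted p = 0.0476). Summed over the libraries of a group, the level was 3.23 CPM in old muscle (50 of 15462631 counts, exact Poisson interval 2.40 to 4.26), 2.30 CPM in disuse muscle (28 of 12172600, 1.53 to 3.32) and 1.32 CPM in young muscle (8 of 6051051, 0.571 to 2.61). The old and young intervals overlap, which is not a test of their difference.

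Across the 15 muscle libraries miR-122-5p was not shown to follow the other liver or blood miRNAs. Pearson's r was -0.03 with miR-192-5p and -0.02 with miR-451a (permutation p = 0.915 and 0.945), with rho of -0.04 and 0.07 (permutation p = 0.881 and 0.804). With the log2 library total r was 0.54 (permutation p = 0.0344, adjusted p = 0.0689), rho 0.34 (permutation p = 0.210), and r was 0.06 without disuse muscle 3 and young muscle 1. With 0 to 14 counts a library these values say little about the level itself. The miRNAs most like it in muscle, miR-671-5p (0.78), miR-222-3p (0.73), miR-540-3p (0.72), miR-324-3p (0.70) and miR-29b-2-5p (0.70) of 341 by the same measure over 15 libraries, rest on those sparse counts and are no finding.

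No liver miRNA passed the test in muscle. Of the 3 that could be tested, miR-192-5p, miR-194-5p and miR-148a-3p, 0 passed in old against young muscle (where 5.87% of 341 miRNAs passed), 0 in disuse against young muscle (0.293%) and 0 in old against disuse muscle (3.52%). miR-192-5p averaged 48.1 ± 7.33 CPM in old, 34.1 ± 5.42 CPM in disuse and 48.2 ± 9.64 CPM in young muscle (SD, n = 5 each). Its log2 fold change in old against young muscle was -0.02 ± 0.21 (edgeR, adjusted p = 0.981). Disuse muscle, at 27.3 to 39.2 CPM, lay wholly under old muscle (41.5 to 58.6 CPM) and overlapped young muscle (32.8 to 57.9 CPM). miR-215-5p averaged 2.35 CPM in old, 2.02 CPM in disuse and 1.29 CPM in young muscle.

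Serum against muscle was compared at each age and state. miR-122-5p was among the tested miRNAs with the largest excess in serum. It was higher in old serum than in old muscle by 8.31 ± 0.42 on the log2 scale (318-fold; edgeR, adjusted p = 1.39e-13), in disuse serum than in disuse muscle by 8.46 ± 0.33 (353-fold; adjusted p = 4.63e-13) and in young serum than in young muscle by 9.29 ± 0.79 (625-fold; adjusted p = 1.45e-09). Passing is common in these comparisons: 69.3% of 316 miRNAs passed in old, 86.5% of 192 in disuse and 76.3% of 190 in young libraries, and 24.7%, 38.0% and 32.6% passed as higher in serum and 44.6%, 48.4% and 43.7% as lower. By size of the log2 fold change it stood at place 8 of 316 in old, 7 of 192 in disuse and 8 of 190 in young libraries. It passed the filter here through serum alone, which favours a large excess, so its places and p-values are given as description.

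The size of this excess rests on few muscle counts, and miR-122-5p entered these fits through its serum counts alone. The fitted fold depends on the scaling and on the prior count, which matters most where a library had no count. The ratio of mean CPM, by library total, was 374 in old, 629 in disuse and 1154 in young libraries. The lowest serum library was 141 times the highest muscle library in old, 204 times in disuse and 87.2 times in young libraries. Other scalings moved the whole distribution: the median over all tested miRNAs was -0.87 in old, -0.36 in disuse and -0.34 in young libraries with TMM factors, against -0.48, 0.13 and 0.16 with library totals, where miR-122-5p was at 8.64, 8.98 and 9.90. Without young serum 1 the young value was 9.58.

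Its neighbours in that order are known mostly from epithelia and other sources outside muscle. In old libraries they were miR-184-3p (9.60), known from cornea and lens, and miR-200b-3p (9.35), of epithelia, above it and miR-192-5p (8.25) and miR-375-3p (7.98), of pancreatic islets, under it, all as log2 fold changes. In disuse libraries they were miR-429-3p (9.94), of the epithelial miR-200 family, and miR-215-5p (9.92) above and miR-205-5p (8.32), of stratified epithelium, and miR-142-5p (8.26), of blood cells, under it. In young libraries they were miR-184-3p (9.89) and miR-200a-3p above and miR-182-5p (8.76) and miR-183-5p (8.18), of sensory organs, under it. miR-200a-3p had 0 counts in young muscle, so its place rests on the prior count, and its mean level in young serum was at least 403-fold higher than the limit of 3 counts over the young muscle group. The log2 fold change of miR-122-5p differed by less than the SE of either from miR-192-5p and miR-375-3p in old libraries, miR-205-5p and miR-142-5p in disuse libraries, and miR-184-3p and miR-182-5p in young libraries.

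The other tested liver miRNAs were also higher in serum, to unequal extents. Of the 5 tested, miR-192-5p, miR-194-5p and miR-148a-3p were common enough in muscle to be tested there too, while miR-122-5p and miR-215-5p entered through serum, so no count over the list is read. miR-192-5p was higher by 8.25 ± 0.32 in old, 7.54 ± 0.21 in disuse and 6.99 ± 0.42 in young libraries on the log2 scale, miR-148a-3p by 3.89 ± 0.35, 4.03 ± 0.26 and 4.52 ± 0.47, and miR-194-5p by 3.42 ± 0.37, 3.13 ± 0.26 and 3.55 ± 0.45. miR-215-5p, with 39 counts in old, 32 in disuse and 15 in young muscle, was at 11.09 ± 0.40, 9.92 ± 0.30 and 9.95 ± 0.57. The leukocyte list, whose 6 members were all tested in muscle too, had 4 higher and 2 lower in each comparison. Of the erythrocyte list, with 5 of 7 members tested in muscle, 6 of 7 were higher in each comparison. Beside these counts, 24.7% of all tested miRNAs in old, 38.0% in disuse and 32.6% in young libraries passed as higher. The shares that passed as lower were 44.6%, 48.4% and 43.7%. The epithelium and pancreas list was tested almost wholly through serum, since 1 of its 8 members was common enough in muscle.

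**Figure D4:**
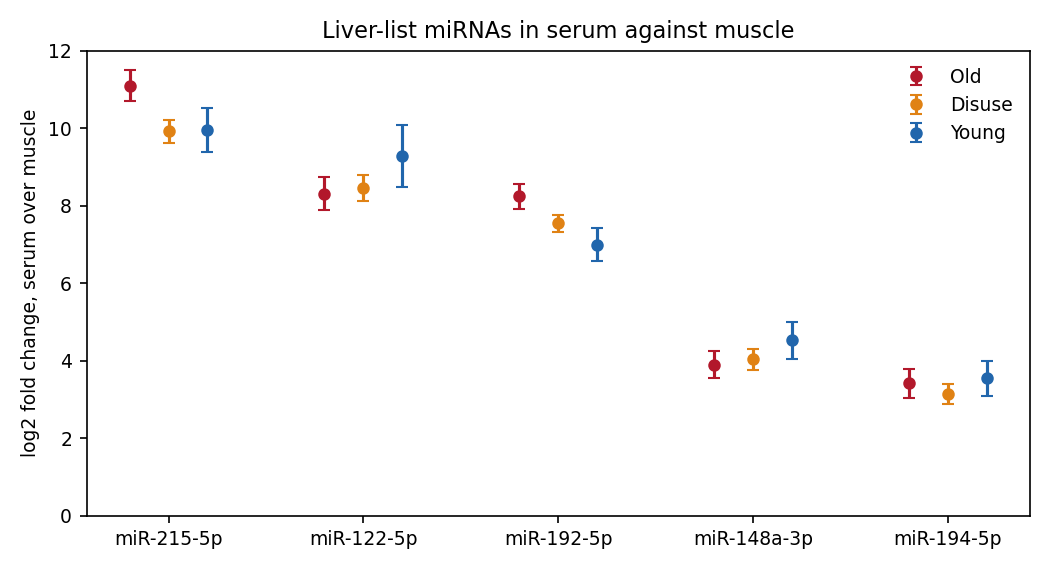
Log2 fold change of serum over muscle for the 5 tested liver-list miRNAs in old, disuse and young libraries (edgeR, vertical bars are SE). miR-122-5p lies between 8.31 and 9.29, under miR-215-5p and far above miR-148a-3p and miR-194-5p.

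Ratios within libraries ask whether muscle held miR-122-5p in the same proportion to other miRNAs of blood as serum did. The log2 ratio to miR-451a averaged -2.18 ± 0.81 in old serum and -3.61 ± 0.78 in old muscle, a difference of 1.43 (exact permutation p = 0.0317). It averaged -3.12 ± 0.42 in disuse serum and -4.00 ± 0.39 in disuse muscle, a difference of 0.87 (exact permutation p = 0.0238), and -3.38 ± 2.00 in young serum and -5.02 ± 1.75 in young muscle, a difference of 1.63 (exact permutation p = 0.214). All 3 differences had the same sign, and none passed over the 15 ratio comparisons (adjusted p = 0.119, 0.119 and 0.459). With 1 in place of 0.5 added to each count, they were 1.37 in old, 0.61 in disuse and 1.08 in young libraries (exact permutation, adjusted p = 0.159, 0.298 and 0.685).

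The log2 ratio of miR-122-5p to miR-192-5p was also not past the threshold in any state. A single ratio at the smallest possible p cannot pass over 15 comparisons, so not passing does not show equal ratios. It averaged -3.73 ± 0.24 in old serum and -3.69 ± 0.91 in old muscle, a difference of -0.04 (exact permutation p = 0.905), whose sign turned when single libraries were left out (-0.42 to 0.11). It averaged -2.92 ± 0.31 in disuse serum and -3.86 ± 0.42 in disuse muscle, a difference of 0.94 with no overlap and the smallest p that 5 against 5 libraries can give (exact permutation p = 0.00794, adjusted p = 0.119). In young libraries it averaged -3.07 ± 1.21 in serum and -4.95 ± 1.61 in muscle, a difference of 1.88 (exact permutation p = 0.0714, adjusted p = 0.214). It was 2.40 without young serum 1, and that of the ratio to miR-451a was 2.51. Disuse muscle 3 had 0 counts of miR-122-5p, so its ratio of -4.25, the lowest of its group, rests on the added 0.5. The lack of overlap takes it at that value. With 1 added in place of 0.5, the differences were -0.10 in old, 0.67 in disuse and 1.33 in young libraries (exact permutation, adjusted p = 0.944, 0.119 and 0.357). The ratios of young muscle 1 and 2 also rest on the added 0.5, since both had 0 counts of miR-122-5p, and young muscle 2 was the lowest, at -7.69 for miR-192-5p. Without young muscle 2 the young difference was 1.19 for the ratio to miR-192-5p and 0.95 for that to miR-451a. Whether these differences vary with age or disuse was not tested as a ratio.

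The change of miR-122-5p was also compared between the sources. The muscle part of this rests on 50 counts in old, 28 in disuse and 8 in young muscle, and miR-122-5p entered this fit through serum. Its age change in serum minus that in muscle was -1.09 ± 0.90 on the log2 scale (edgeR interaction over all 29 libraries, adjusted p = 0.578), where 0.830% of 241 tested miRNAs passed. Without young serum 1 it was -1.56 (adjusted p = 0.297), and thinned to the shallowest library it was 0.27, so its sign is not settled. Its disuse change in serum minus that in muscle was -0.85 ± 0.94 (adjusted p = 0.937), where 0 of 241 passed, a share of 0%, by edgeR and 0 by DESeq2 and limma-voom, with 24 at an unadjusted p under 0.05. It was -1.32 without young serum 1 (adjusted p = 0.699). In both interactions 0 of 5 tested liver miRNAs passed. miR-192-5p came nearest, with an age change higher in serum by 1.25 ± 0.34 (adjusted p = 0.0753), while the sign of the age interaction of miR-122-5p turned with thinning.

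The arms of the miR-122 hairpin were counted very unequally. In serum the passenger arm miR-122-3p had 8 counts in 6 of 14 libraries beside 3068 counts of miR-122-5p, a share of 0.260% of the counts of both arms (exact Clopper-Pearson interval 0.112 to 0.512%). By group it had 0 counts in old, 5 in disuse and 3 in young serum. In muscle it had 0 counts beside 86 of miR-122-5p, which allows a share of up to 3.49%, so a share like that of serum was not detectable at this depth. miR-802-5p, another hepatocyte miRNA, had 16 counts in old, 10 in disuse and 10 in young serum and 1, 0 and 0 counts in old, disuse and young muscle. miR-192-3p had 4, 5 and 0 counts in old, disuse and young serum and miR-802-3p had 1, 0 and 1, and neither was counted in muscle.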

How the data were processed

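The data are small RNA libraries of serum and of tibialis anterior muscle. Per the labels' protocols, RNA came from 300 µl of serum or from muscle, TruSeq small RNA libraries were amplified for up to 15 PCR cycles, and products of 145 to 160 bp were taken from a gel. The submitters' processing notes name Bowtie and mm10. Versions, the miRNA annotation and the counting of ambiguous reads are not given in the sources used. The authors deposited 1 table of raw counts for each mature miRNA in each library, not normalized. For 488 miRNAs that table has 28 values for 29 columns, the leading 13 of them 0. The deposited values of the 695 complete miRNAs are counts in every column. The 488 hold 17450 counts (0.0518% of muscle counts) and were used only in an alternative. All columns were matched to samples by title, and 0 had no sample.

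Groups follow the labels. Levels are CPM by library total. Differences were tested with edgeR 4.0.16 (glmQLFit, glmQLFTest) in R 4.3.3, with TMM factors, filterByExpr by group and Benjamini-Hochberg adjustment over all tested miRNAs at 0.05. The 3 serum groups were fitted together, serum and muscle of each state together, and all 29 libraries for interactions. An SE is the log2 fold change divided by the square root of F. miR-122-5p did not pass filterByExpr in muscle, where log2 (CPM + 1), scaled by TMM, was compared by exact permutation (SciPy 1.17.1 for ratios), adjusted over 3 comparisons. Ratios add 0.5 to each count and are adjusted over 15 comparisons, where a single ratio cannot pass even at the smallest exact p. Correlations use TMM-scaled log2 (CPM + 1) and 100000 permutations over all libraries of a source, also after centring, adjusted over 6 relations. Precision is limited by depth: 45176 to 309133 counts in serum and 254624 to 5943445 in muscle. The fits were tested on simulated data.

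Named are miR-122-5p, the liver list, miR-451a, miR-486-5p, miR-16-5p, miR-23a-3p, miR-191-5p and miR-133a-3p as reference values, the 5 miRNAs most like miR-122-5p in each source, and its 2 neighbours on either side in the order of serum against muscle. The miRNA and the lists were chosen with earlier results of these data known. Alternatives were other scalings (DESeq2 1.42.0 size factors, upper quartile, library totals, totals without the erythrocyte list), no filter or a mean of at least 10 CPM, the DESeq2 Wald test, limma-voom (limma 3.58.1), thinning to the shallowest library, the replicate number as a block, the 488 miRNAs kept, and leaving out each library. Chosen after seeing the data were DESeq2 and limma-voom with no filter in muscle, and leaving out the 2 shallowest muscle libraries or young serum 1 from correlations.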

Additional observations from a re-analysis of the deposited data

Results flagged for a closer look

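Of 48 sets of values of liver miRNAs and of miR-122-5p ratios within a group, 4 held a library far from the others by Dixon's gap, and chance alone gives about 1 in 20. In young serum, library 1 was the low extreme of 3 ratios of miR-122-5p. Its log2 ratio to miR-16-5p was -6.85 (others -3.75 to -2.53), to miR-192-5p -5.14 (others -2.93 to -2.17) and to miR-451a -6.90 (others -3.12 to -2.05). These ratios share the same 27 counts of miR-122-5p, so they are not separate pieces of evidence. This library also had the highest red cell ratio in serum (log2 of miR-451a over miR-23a-3p, 3.57), and the part of red cell RNA in its ratios was not tested. In disuse serum, library 5 had a log2 ratio of miR-122-5p to miR-451a of -3.86 (others -3.09 to -2.84), from 126 counts of miR-122-5p, with a red cell ratio of 1.59, inside the range of its group (1.33 to 2.38).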

How the results depend on the processing

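The excess of miR-122-5p in serum kept its sign and its call under the alternatives run: the log2 fold change was 7.93 to 8.97 in old, 7.25 to 9.36 in disuse and 8.86 to 10.28 in young libraries, and 7.99 to 8.72, 8.33 to 8.67 and 8.74 to 10.14 with single libraries left out. Serum differences between groups were not called in any setting, and some signs turned. Old against young serum was -0.021 with library totals without the erythrocyte list, and -0.23 to 0.35 with single libraries left out. Disuse against young serum was 0.16 with limma-voom, and -0.48 to -0.02 with single libraries left out. Old against disuse serum ran from 0.05 to 0.53 with single libraries left out. Thinned to the shallowest library, the age interaction was 0.27, and with single libraries left out it was -2.05 to -0.41 and the disuse interaction -1.93 to -0.29. Without single libraries, old against young muscle was 1.00 to 1.43 (adjusted p 0.0476 to 0.262). The cause of these turns was not tested.

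With single libraries left out, the log2 ratio to miR-191-5p ran from -0.18 to 0.63 (old against young serum), -0.33 to 0.49 (disuse against young serum) and -0.076 to 0.40 (old against disuse serum). The ratio to miR-16-5p ran from -0.60 to 0.48, and that to miR-192-5p from -0.37 to 0.37, in disuse against young serum. The ratio to miR-192-5p ran from -0.42 to 0.11 in old serum against old muscle. Centred on group means, the serum correlations with miR-192-5p (0.84) and with the red cell ratio (-0.73) passed, under a permutation across groups whose p may be too small. With library totals the serum correlation with depth was -0.0013 and the muscle correlations with miR-192-5p and miR-451a were 0.040 and 0.053, and that with miR-451a was 0.044 when centred.

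The r between deviations of same-numbered libraries was -0.18 to 0.35 in serum (median 0.09) and -0.32 to 0.14 in muscle (median -0.01). Between serum and muscle it was -0.06 to 0.19. It was over 0.1 in 5 of 13, 2 of 15 and 1 of 14 pairs. Whether the numbers mark pairs was not tested, and they were not taken as pairs because no label says so. With the replicate block, miR-122-5p was at 0.27, -0.07 and 0.35 in the serum comparisons of old and young, disuse and young, and old and disuse, at 8.20, 8.39 and 9.63 in old, disuse and young serum against muscle, and at -1.02 and -0.79 in the age and disuse interactions. In old against young muscle the block gave an adjusted p of 0.0938 (exact). Outside muscle the block changed no call of miR-122-5p, and it took the calls over all miRNAs in old against disuse serum to 0.

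Calls over all miRNAs moved more. Old against young serum had 16, but 5 with library totals, 9 without the erythrocyte list, 1 without old serum 2 and 9 without old serum 1. Old against disuse serum had 4, but 0 with library totals, with totals without the erythrocyte list or with a mean of at least 10 CPM, and 0 to 6 with single libraries left out. Disuse against young serum had 0, but 5 with no filter. Serum against muscle had 90 to 273 in old, 134 to 327 in disuse and 95 to 270 in young libraries. The age interaction had 2, against 1 to 11, and the disuse interaction 0, against 0 to 5. Old against young muscle had 20, against 33 by DESeq2 with no filter, and disuse against young muscle 1, against 0 to 2. A mean of at least 10 CPM, and DESeq2 and limma-voom with filterByExpr, give no value for miR-122-5p in muscle. Depth limits muscle most, where 3 libraries had 0 counts.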
